A study of Mus musculus with 6 samples.

Results

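The genes described here encode 10 proteins of basement membranes, 4 collagen IV chains (Col4a1, Col4a2, Col4a5, Col4a6), 4 laminin chains (Lama4, Lama5, Lamb1, Lamc1) and both nidogens (Nid1, Nid2). A gene was taken where the array annotation pairs a probe set with its symbol and no other. All 10 were found, each with 1 probe set, among 21789 probe sets that carry exactly 1 symbol. The RNA came from whole mouse corneas taken at postnatal day 3. There were 3 arrays (Affymetrix Mouse Gene 1.0 ST) of DN-Clim corneas and 3 of corneas from WT littermates. DN-Clim pups carry a dominant-negative Clim transgene driven by the keratin 14 promoter (K14), which is active in basal epithelial cells, so that stroma, vessels and corneal endothelium are not the cells the promoter is chosen for. The Clim cofactors work by binding LIM-domain regulators of transcription. The labels do not say whether an array holds 1 pup or a pool, so the spread between arrays may be partly technical.

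Basement membranes are thin sheets of matrix under epithelia and around vessels. Laminins, each a trimer of an alpha, a beta and a gamma chain, bind cell-surface receptors and assemble into one network, and collagen IV trimers form another. Nidogens bind both networks. In the cornea such sheets lie beneath the epithelium and, as Descemet's membrane, on the endothelial side of the stroma, and vessels at the limbus have their own. Col4a1 and Col4a2 encode chains of the collagen IV found in most basement membranes, and Col4a5 and Col4a6 chains of a rarer network. Lama5 encodes the alpha chain of a widespread epithelial and vascular laminin, Lama4 that of a laminin of vessels and mesenchymal tissues, and Lamb1 and Lamc1 the beta and gamma chains with which both assemble.

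The collagen IV genes lie in head-to-head pairs, Col4a1 with Col4a2 on chromosome 8 and Col4a6 with Col4a5 on chromosome X, and their promoters are shown because the genes of a pair start close to each other on opposite strands. The sequences are from RefSeq, build GRCm38.p6, 250 bases before to 50 after a start site, 5′ to 3′ on the strand of the gene. Capitals mark matches on either strand to a GC box (GGGCGG) or a CCAAT box (CCAAT). Matches to the different motifs did not overlap in these windows. The windows are chr8:11312777-11313076 (minus strand) for Col4a1, chr8:11312555-11312854 (plus strand) for Col4a2, chrX:141475169-141475468 (plus strand) for Col4a5 and chrX:141474027-141474326 (minus strand) for Col4a6.
Col4a1: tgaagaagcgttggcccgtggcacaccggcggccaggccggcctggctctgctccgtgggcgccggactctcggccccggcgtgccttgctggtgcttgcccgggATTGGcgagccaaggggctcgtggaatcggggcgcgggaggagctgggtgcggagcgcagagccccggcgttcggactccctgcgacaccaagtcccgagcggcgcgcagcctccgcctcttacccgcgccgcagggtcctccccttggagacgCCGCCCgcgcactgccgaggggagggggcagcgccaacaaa
Col4a2: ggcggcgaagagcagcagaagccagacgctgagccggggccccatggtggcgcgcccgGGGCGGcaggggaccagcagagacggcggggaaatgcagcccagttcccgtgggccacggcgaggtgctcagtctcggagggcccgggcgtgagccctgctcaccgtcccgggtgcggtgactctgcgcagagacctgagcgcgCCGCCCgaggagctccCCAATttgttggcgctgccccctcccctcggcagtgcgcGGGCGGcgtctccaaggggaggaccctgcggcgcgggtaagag
Col4a5: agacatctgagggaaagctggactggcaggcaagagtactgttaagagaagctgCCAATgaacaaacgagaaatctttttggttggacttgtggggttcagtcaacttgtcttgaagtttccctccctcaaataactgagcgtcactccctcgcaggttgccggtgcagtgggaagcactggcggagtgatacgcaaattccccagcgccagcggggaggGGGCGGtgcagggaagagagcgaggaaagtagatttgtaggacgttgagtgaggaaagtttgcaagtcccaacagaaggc
Col4a6: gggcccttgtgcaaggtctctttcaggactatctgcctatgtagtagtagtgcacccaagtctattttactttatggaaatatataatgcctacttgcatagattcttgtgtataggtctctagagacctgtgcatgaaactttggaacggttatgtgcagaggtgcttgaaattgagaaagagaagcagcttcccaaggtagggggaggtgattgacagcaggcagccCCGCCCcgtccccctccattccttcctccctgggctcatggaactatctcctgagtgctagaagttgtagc

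The start sites that place the Col4a1 and Col4a2 windows lie 21 bases apart, their windows share 78 bases, and 1 GC box match lies in both. Those that place the Col4a6 and Col4a5 windows lie 1343 bases apart and the windows do not overlap. These sites are not always the ends of the annotated genes. The Col4a1 gene reaches to position 11312889, beyond the start site of its window at 11312826. The Col4a1 and Col4a2 windows are 74.0% and 73.7% G or C, and those of Col4a5 and Col4a6 are 52.7% and 48.3%, beside a median of 52.7% over all 32851 windows of the table. Windows were matched for 7 of the 10 genes, and those of Lama5, Lamb1 and Nid1 are 72.7%, 63.7% and 64.7% G or C. A GC box was found in all 7, against 35.7% of all windows, and a CCAAT box in 5 of the 7, against 37.4%. The only GC box match of the Col4a1 window also lies in the Col4a2 window and is counted for both genes. A TATA box (TATAAA) was found in 0 of the 7, against 13.6% of all windows. These matches describe letters in the windows and do not show that a factor binds there.

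Values are given as log2(intensity + 16) of the deposited intensities, an offset that understates the change of dim genes. Each difference is the DN-Clim mean minus the WT mean. The DN-Clim arrays differed among themselves. The mean of 13 lens genes was 10.58 for DN-Clim replicate 1 and 10.84 for replicate 2, but 7.98 for DN-Clim replicate 3 and 8.15 to 8.70 on the WT arrays. Of the 13 differences 12 were above 0, beside 10017 of all 23410 probe sets. The lens crystallin Cryaa read 14.25, 13.96 and 8.86 in DN-Clim against 8.85, 9.11 and 9.59 in WT, and the lens membrane channel Mip 7.76, 8.43 and 7.50 in DN-Clim against 7.95, 7.69 and 8.03 in WT. The mean of 7 retina genes was 10.04, 10.62 and 8.82 for DN-Clim replicates 1, 2 and 3 and 8.31 to 9.35 on WT arrays. Results are therefore given with all arrays, without DN-Clim replicate 3, and with that array alone against WT. Markers of corneal epithelium and stroma were bright on every array, with the corneal keratin Krt12 at 11.04 to 11.95 in DN-Clim and 11.21 to 11.55 in WT, and the stromal proteoglycan Kera at 11.96 to 12.75 in DN-Clim and 12.56 to 13.09 in WT.

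With all 6 arrays none of the 10 genes passed the adjusted threshold of 0.05 in the limma fit over 23410 probe sets, where 0.0128% of all probe sets passed. All 10 differences were below 0, with a median of -0.27, while 57.2% of all tested probe sets were below 0 with a median of -0.04. At an unadjusted p under 0.05, 2 of the 10 were lower in DN-Clim (Lama4 and Nid1), beside 4.49% of all probe sets, and 0 were higher, beside 1.45%. For 1 of the 10, Lama4, the highest DN-Clim array was below the lowest WT array, beside 6.95% of probe sets, and for 0 of the 10 the groups were separated the other way, beside 3.2%. Array by array, all 10 genes lay below their WT mean on DN-Clim replicates 1 and 2 and 4 of 10 on DN-Clim replicate 3, where the shares of all probe sets were 60.1%, 62.6% and 43.8%. Relative to WT the median of the 10 genes was -0.30 for DN-Clim replicate 1, -0.67 for replicate 2 and 0.08 for replicate 3. The low values that all 10 genes shared were thus on the 2 arrays with the highest lens signal. On WT replicate 3, which had the highest lens mean of the WT arrays (8.70), 8 of the 10 lay below the WT mean. Their median there was -0.12, and 54.1% of all probe sets were below the WT mean. The part of lens signal in the low values was not tested.

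**Figure D1:**
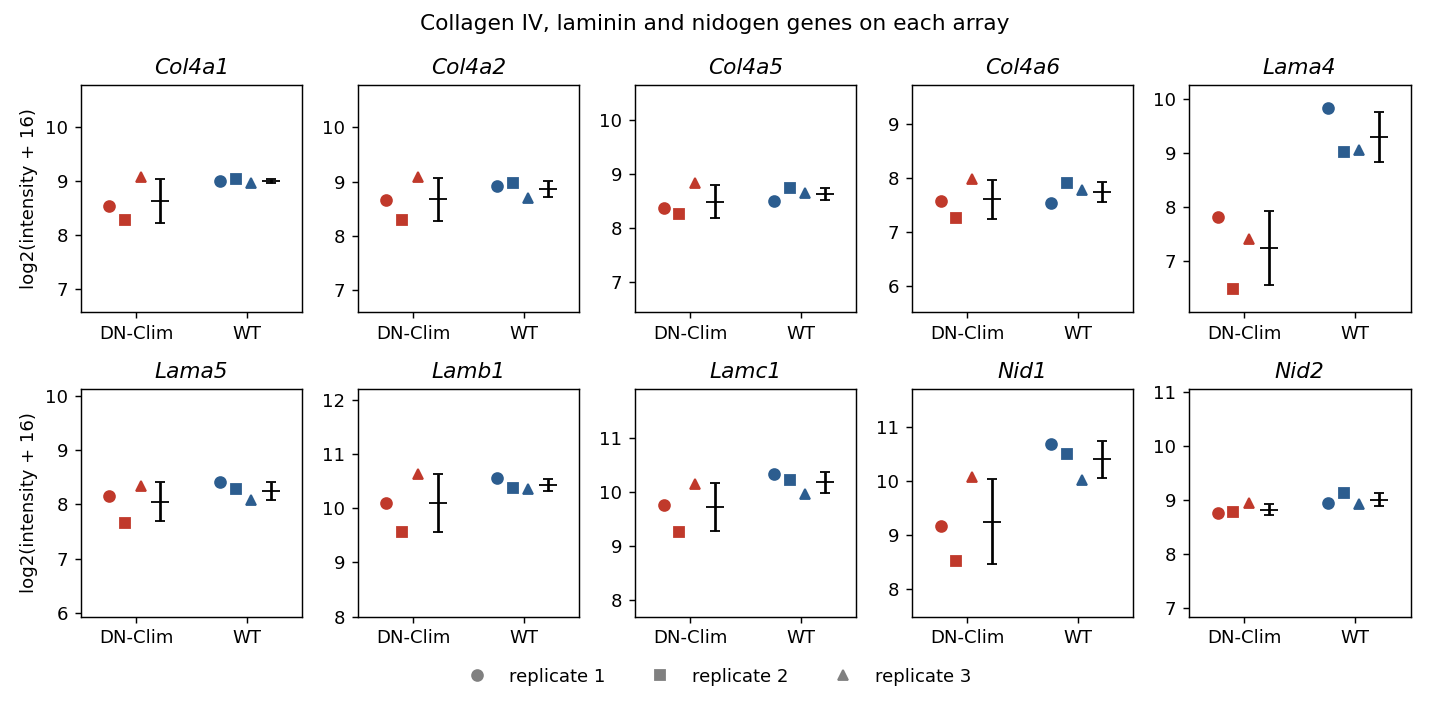
Log2(intensity + 16) of each of the 10 genes on the 3 DN-Clim (red) and 3 WT (blue) arrays, with the mean and SD (n = 3) in black; marker shapes give the replicate, and all panels span the same range of the log2 scale. For Lama4 the DN-Clim arrays (6.49 to 7.82) lie below the WT arrays (9.01 to 9.82), and for the other genes the groups overlap, with DN-Clim replicate 3 (triangle) the highest DN-Clim array.

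Lama4, the alpha chain of the laminin best known from vessel walls, had the largest difference of the 10. It read 7.82, 6.49 and 7.41 in DN-Clim replicates 1, 2 and 3, against 9.82, 9.01 and 9.05 in WT replicates 1, 2 and 3. In intensity these were 210.3, 74.06 and 154.2 in DN-Clim, against 889.5, 498.6 and 512.8 in WT. The lowest WT array was above the highest DN-Clim array, and DN-Clim replicate 3, which lacks the lens signal, lay between the other DN-Clim arrays. The difference was -2.05 (SE 0.353, 95% interval -2.85 to -1.25, n = 3 each), a ratio of 0.241 on this scale, with an unadjusted p of 0.000233 and a limma adjusted p of 0.273. It therefore did not pass over all genes. Without DN-Clim replicate 3 it was -2.13 (SE 0.395, limma adjusted p = 0.0397) and with that array alone -1.88 (SE 0.324, adjusted p = 0.0775), where the single array is assumed to vary like WT. With the lens mean as a covariate it was -1.83 (SE 0.433, adjusted p = 0.225). The difference was between -2.13 and -1.83 in these fits, while its call depended on the fit. WT replicate 1 was the highest array, and without it the difference was -1.78 and did not pass. The part of lens signal in the Lama4 difference was not tested.

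Lama5, the alpha chain that is typical of epithelial basement membranes, overlapped between groups. It read 8.15, 7.65 and 8.35 in DN-Clim against 8.41, 8.28 and 8.08 in WT. DN-Clim replicate 3 lay within the WT range and only DN-Clim replicate 2 lay below it. The difference was -0.21 (SE 0.224, 95% interval -0.72 to 0.29, limma adjusted p = 0.999), and its sign turned with replicate 3 alone (0.09).

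The beta and gamma chains that both alpha chains share overlapped between groups. Lamb1 read 10.10, 9.57 and 10.63 in DN-Clim against 10.56, 10.38 and 10.35 in WT, a difference of -0.33 (SE 0.264, limma adjusted p = 0.999). Lamc1 read 9.76, 9.26 and 10.14 in DN-Clim against 10.34, 10.23 and 9.97 in WT, a difference of -0.46 (SE 0.247, limma adjusted p = 0.926). For both genes DN-Clim replicates 1 and 2 were the lowest of all arrays, and DN-Clim replicate 3 lay within the WT range for Lamc1 and above it for Lamb1. Without DN-Clim replicate 3 the differences were -0.60 for Lamb1 and -0.67 for Lamc1 (adjusted p = 0.158 and 0.136), and with it alone they were 0.20 and -0.04.

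Nid1, one of the pair of nidogens that link laminin to collagen IV, had the second largest difference. It read 9.17, 8.52 and 10.07 in DN-Clim against 10.68, 10.51 and 10.02 in WT. DN-Clim replicates 1 and 2 were far below every WT array, while DN-Clim replicate 3 was slightly above WT replicate 3, so that the groups overlapped. The difference was -1.15 (SE 0.363, 95% interval -1.97 to -0.33, a ratio of 0.451), with an unadjusted p of 0.0112 and a limma adjusted p of 0.699. Nid1 passed without DN-Clim replicate 3 (-1.56, SE 0.260, limma adjusted p = 0.0277). It differed by only -0.33 (SE 0.269) with that array alone and by -0.47 (SE 0.232) with the lens covariate.

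Nid2, the other nidogen, had the narrowest spread in DN-Clim of the 10 genes. It read 8.76, 8.78 and 8.94 in DN-Clim (8.83 ± 0.10, SD, n = 3) against 8.95, 9.14 and 8.92 in WT (9.00 ± 0.12, SD, n = 3). The groups overlapped at DN-Clim replicate 3 and WT replicate 3. The difference was -0.17 (SE 0.175, 95% interval -0.57 to 0.22, limma adjusted p = 0.999).

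Of the collagen IV genes, Col4a1 read 8.54, 8.28 and 9.07 in DN-Clim against 9.01, 9.04 and 8.96 in WT. Its partner Col4a2 read 8.66, 8.29 and 9.08 in DN-Clim against 8.92, 8.97 and 8.70 in WT. In both genes DN-Clim replicate 3 was the highest of all 6 arrays and DN-Clim replicates 1 and 2 the lowest. Col4a1 differed by -0.38 (SE 0.226, 95% interval -0.88 to 0.13) and Col4a2 by -0.19 (SE 0.230, 95% interval -0.70 to 0.33), with limma adjusted p of 0.963 and 0.999. The SD of Col4a1 was 0.41 over the DN-Clim arrays and 0.04 over the WT arrays, and its sign turned with replicate 3 alone (0.07).

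The X-linked pair had smaller differences. Col4a5 read 8.37, 8.25 and 8.83 in DN-Clim against 8.50, 8.73 and 8.64 in WT. Col4a6 read 7.58, 7.26 and 7.98 in DN-Clim against 7.54, 7.90 and 7.78 in WT. DN-Clim replicate 3 was again the highest array for both. The differences were -0.14 (SE 0.207) and -0.13 (SE 0.226), both with a limma adjusted p of 0.999, and each became positive with replicate 3 alone (0.21 and 0.24) and with the lens covariate (0.11 and 0.14). The sign of the Col4a2 difference turned in the same fits (0.22 and 0.15). The other collagen IV chains measured, Col4a3 and Col4a4, which assemble with Col4a5, differed by 0.09 (SE 0.208) and -0.16 (SE 0.206).

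**Figure D2:**
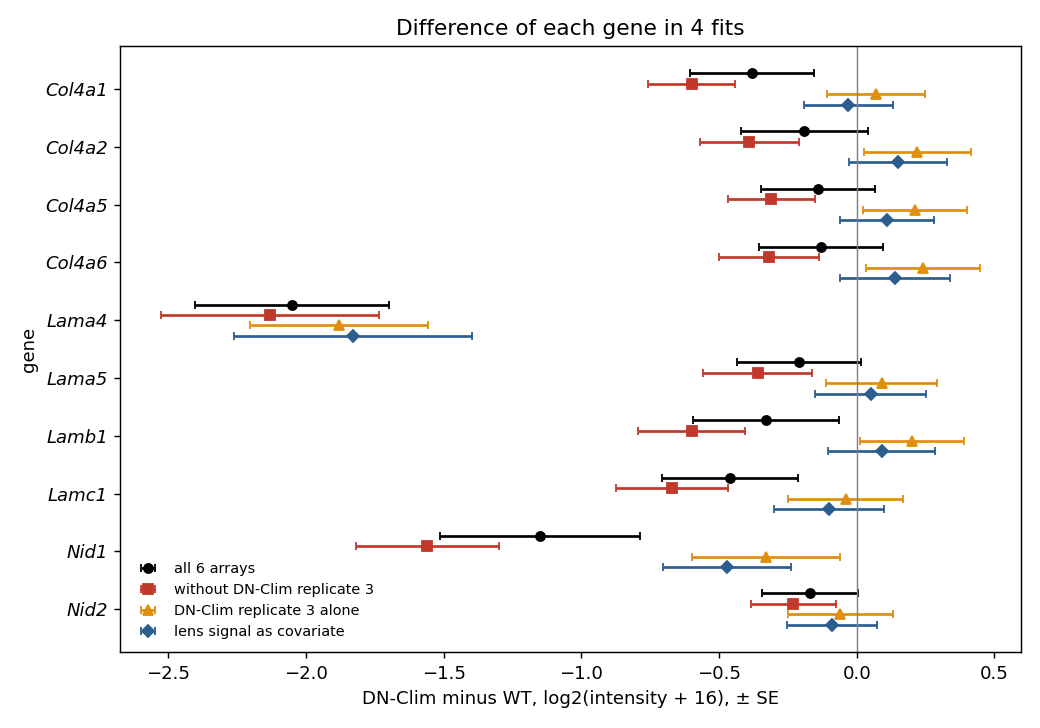
Difference, DN-Clim minus WT on the log2(intensity + 16) scale, of each gene with its SE in 4 limma fits (all 6 arrays; without DN-Clim replicate 3; DN-Clim replicate 3 alone against WT; lens mean as a covariate). Lama4 stays between -2.13 and -1.83 in all 4, Nid1 spans -1.56 to -0.33, and the other 8 genes lie between -0.10 and 0.24 in the last 2 fits.

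Without DN-Clim replicate 3, 2 of the 10 genes fell (Lama4 and Nid1), where 1.52% of all probe sets fell and 0.547% rose, and the median of the 10 was -0.49 beside -0.12 over all probe sets. With DN-Clim replicate 3 alone against WT, 0 of the 10 passed in limma, beside 0.312% of all probe sets that passed as lower, and 1, Lama4, was lower at an unadjusted p under 0.05, beside 8.12%. The median of the 10 was then 0.08, beside 0.06 over all probe sets. With the lens covariate the median was 0.01 and 5 of 10 differences were below 0, beside 10521 of all 23410. The covariate sets apart the same 2 arrays, so these fits are not separate checks.

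Partner genes were also compared within each array, which removes any offset common to the array. Col4a2 minus Col4a1, relative to its WT mean, was 0.27, 0.15 and 0.15 on the DN-Clim arrays and 0.05, 0.07 and -0.12 on the WT arrays, a change of 0.19 in which the groups did not overlap. Col4a6 minus Col4a5 changed by 0.01, with every array within 0.11 of the WT mean. Lamb1 minus Lamc1 changed by 0.13. For these 3 pairs no array was more than 0.27 from the WT mean, while the genes themselves were as far from it as -0.92 (Lamc1 on DN-Clim replicate 2).

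The other pairs differed more between groups. Lama4 minus Lama5 was -1.36, -2.19 and -1.97 on the DN-Clim arrays and 0.38, -0.31 and -0.07 on the WT arrays, a change of -1.84 without overlap. Nid2 minus Nid1 was 0.99, 1.66 and 0.27 on the DN-Clim arrays and -0.33, 0.03 and 0.30 on the WT arrays, a change of 0.97 with overlap at DN-Clim replicate 3. Over the 5 pairs an exact two-sided permutation test over 20 arrangements of the arrays gave p = 0.1 for Lama4 minus Lama5 and for Col4a2 minus Col4a1, 0.2 for the nidogens, 0.3 for Lamb1 minus Lamc1 and 0.9 for Col4a6 minus Col4a5. The smallest p that 3 against 3 arrays allow is 0.1, so no pair could pass (adjusted over the 5 pairs, the smallest was 0.25).

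**Figure D3:**
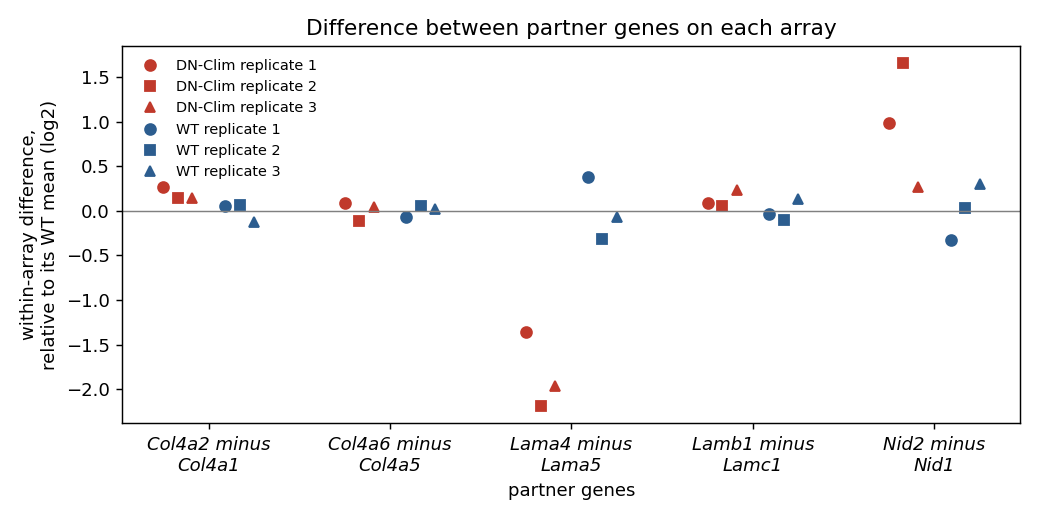
Within-array difference between partner genes, relative to the mean of the WT arrays, on the 3 DN-Clim (red) and 3 WT (blue) arrays (log2 units). Lama4 minus Lama5 is -2.19 to -1.36 on DN-Clim arrays and -0.31 to 0.38 on WT arrays, and the collagen IV pairs lie within 0.27 of 0 on all arrays.

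Most markers of vessel and stromal cells had negative differences. Of 12 vascular endothelial markers 10 were below 0, beside 57.2% of all probe sets, and 7 had every DN-Clim array below every WT array, beside 6.95%. With all 6 arrays 1 of the 12, the endothelial sialomucin Emcn, fell, beside 0.0128% of all probe sets. The list median was -0.58, -0.76 and -0.33 for DN-Clim replicates 1, 2 and 3, and the mean level was 7.82 to 8.16 in DN-Clim and 8.61 to 8.82 in WT. The endothelial cadherin Cdh5 read 8.05, 7.15 and 7.43 in DN-Clim against 9.20, 8.80 and 9.06 in WT, and the endothelial adhesion molecule Pecam1 7.47, 6.76 and 7.34 in DN-Clim against 8.22, 7.91 and 7.95 in WT. Like Lama4, both were low on all 3 DN-Clim arrays, but the list was not uniform. The receptor Kdr was at 0.27, 1.13 and -0.23 relative to WT on DN-Clim replicates 1, 2 and 3 (difference 0.39), and Robo4, Esam and Erg were at 0.44, 0.21 and 0.03 on DN-Clim replicate 3. Of 9 pericyte and smooth muscle markers all 9 were below 0, beside 57.2% of all probe sets, and 4 had every DN-Clim array below every WT array, beside 6.95%. Their mean level was 7.87 to 8.26 in DN-Clim and 8.55 to 8.96 in WT. Among them, smooth muscle actin Acta2 read 9.59, 8.70 and 9.19 in DN-Clim against 10.37, 11.23 and 10.24 in WT, and the pericyte gene Rgs5 9.31, 9.19 and 7.65 in DN-Clim against 9.39, 9.85 and 9.67 in WT. In whole-cornea RNA, fewer cells of a type and less RNA per cell cannot be told apart, and the part of vessel cells in the Lama4 difference was not tested.

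Most keratocyte markers were low on the same arrays as Nid1. Of 10, 9 were below 0, beside 57.2% of all probe sets, and their median was -0.96, -1.60 and -0.01 for DN-Clim replicates 1, 2 and 3, beside -1.23, -1.88 and -0.33 for Nid1. Their mean level was 10.16 to 11.27 in DN-Clim and 11.26 to 11.62 in WT. Col3a1, a fibrillar collagen, read 9.79, 9.20 and 10.80 in DN-Clim against 11.73, 11.47 and 11.04 in WT. Ptgds, a prostaglandin synthase, went the other way, at 0.74, 1.29 and 0.15 relative to WT on DN-Clim replicates 1, 2 and 3. It rose without DN-Clim replicate 3 (1.01, limma adjusted p = 0.0464). In that fit 5 of the 10 keratocyte markers fell and 1 rose, beside 1.52% and 0.547% of all probe sets. Thy1 read 9.12, 8.88 and 8.40 in DN-Clim against 11.21, 8.36 and 9.22 in WT. Its WT arrays spread widely (SD 1.47), and the lowest of all arrays was WT replicate 2. The list of corneal epithelium, the tissue of the transgene's promoter, had a median of -0.21, -0.46 and 0.03 for DN-Clim replicates 1, 2 and 3 over 8 genes. Of the 8 differences 7 were below 0, beside 57.2% of all probe sets. The eye transcription factor Pax6, at 0.19, was the exception. For 2 of the 8, the basal keratins Krt14 (-0.63) and Krt5 (-0.31), every DN-Clim array was below every WT array, beside 6.95% of all probe sets. Without DN-Clim replicate 3, 2 of the 8 fell, beside 1.52% of all probe sets. They were Krt14 (-0.81, limma adjusted p = 0.0471) and the corneal dehydrogenase Aldh3a1 (-1.62, adjusted p = 0.00446). The corneal endothelial list had medians of -0.07, -0.14 and 0.28 over 5 genes, with Slc4a11 at -0.14 and Col8a2, a collagen of Descemet's membrane, at -0.27. Of 9 macrophage markers all 9 were below 0 (median -0.30), beside 57.2% of all probe sets, and 5 had every DN-Clim array below every WT array, beside 6.95%. The list median was -0.32, -0.38 and -0.26 for DN-Clim replicates 1, 2 and 3, beside -1.47, -2.8 and -1.88 for Lama4. Csf1r differed by -0.27, Adgre1 by -0.32, Lyz2 by -0.79 and Mrc1 by -1.46. By contrast C1qa (-0.06), C1qb (-0.04) and Cd14 (-0.09) differed little. With DN-Clim replicate 3 alone the Mrc1 difference was -1.7. The 8 skeletal muscle markers had a median of 0.32, with Mylpf at 1.68 and Ckm at -0.06. Their median was 0.41, -0.15 and 0.79 for DN-Clim replicates 1, 2 and 3. On DN-Clim replicate 3, 0 of the 8 lay below the WT mean, beside 43.8% of all probe sets. That array, which lacks the lens signal, thus had the highest muscle median of the DN-Clim arrays. The part of these cell types in the 10 genes' differences was not tested.

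**Figure D4:**
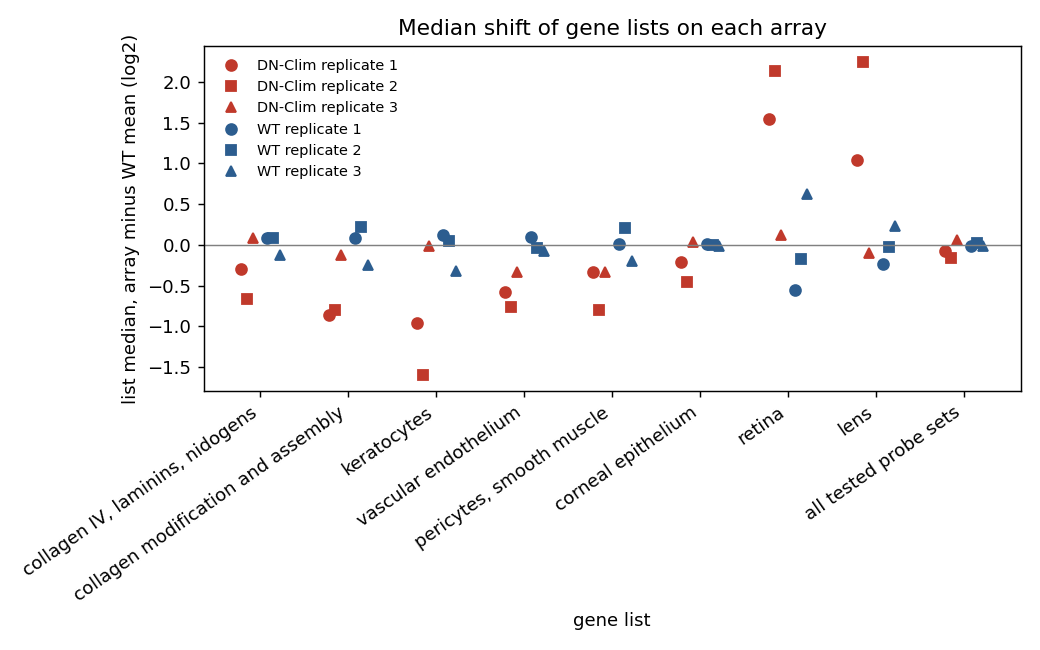
Median of gene lists on each DN-Clim (red) and WT (blue) array relative to the WT mean of each gene (log2 units); each point is 1 array. The 10 basement membrane genes sit at -0.30, -0.67 and 0.08 for DN-Clim replicates 1, 2 and 3. The vascular, pericyte, collagen assembly and keratocyte lists are below 0 on all 3 DN-Clim arrays. On replicate 3 they sit at -0.33, -0.33, -0.13 and -0.01.

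The wider set of basement membrane genes was read in the same fit, and none of the 62 measured of 64 listed passed with all 6 arrays. Of the 62, 57 differences were below 0 (91.9%, beside 57.2% of all probe sets) with a median of -0.36. At an unadjusted p under 0.05, 16 were lower and 0 higher in DN-Clim, beside 4.49% and 1.45% of all probe sets, and 9 had every DN-Clim array below every WT array, beside 6.95%. Without DN-Clim replicate 3, 6 of the 62 fell and 0 rose, beside 1.52% and 0.547%. With the lens covariate 40 of the 62 were below 0 with a median of -0.08, beside 10521 of all 23410.

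Among the other laminin chains, 5 of the 6 measured were below 0, beside 57.2% of all probe sets. Lama2, the alpha chain of muscle and mesenchymal basement membranes, read 8.48, 7.73 and 9.76 in DN-Clim against 10.15, 10.04 and 9.72 in WT. As with Nid1, its low values were on DN-Clim replicates 1 and 2, and it fell without DN-Clim replicate 3 (-1.86, SE 0.245, limma adjusted p = 0.0124) and differed by -0.21 with that array alone. Lamb2, a beta chain of vessel and neuromuscular basement membranes, differed by -0.52, and Lamb3, a beta chain of the epithelial anchoring laminin, by -0.33, neither past the threshold.

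Of 20 other basement membrane proteins 18 were below 0, beside 57.2% of all probe sets, and 3 had every DN-Clim array below every WT array, beside 6.95%. Egfl6, a matrix protein that binds integrins, read 8.35, 7.66 and 9.28 in DN-Clim against 10.26, 9.98 and 10.51 in WT. It lay below WT on all 3 DN-Clim arrays, with a difference of -1.82 over all 6 arrays (SE 0.364, limma adjusted p = 0.418) and of -2.24 without DN-Clim replicate 3 (adjusted p = 0.00715). The fibulins Fbln2 and Fbln1 differed by -1.02 and -0.73 and also did not overlap, with limma adjusted p of 0.738 and 0.788. WT replicate 1 was high for both (9.81 for Fbln2 and 9.82 for Fbln1, with the other WT arrays at 8.68 to 8.90), and without it the differences were -0.68 and -0.40. Of 16 receptor genes 15 were below 0 and 3 had every DN-Clim array below every WT array, beside the same shares. Ddr2, a collagen receptor kinase, read 8.27, 7.79 and 9.25 in DN-Clim against 9.85, 10.08 and 9.39 in WT, and fell without DN-Clim replicate 3 (-1.75, adjusted p = 0.0150). The integrin chains Itga1, which binds collagen IV, and Itga6, which binds laminin, differed by -0.63 and -0.49 and did not pass.

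The enzymes and chaperones of collagen were the related list with the most negative median. All 18 measured differences were below 0 (median -0.67), beside 57.2% of all probe sets, 10 were lower at an unadjusted p under 0.05, beside 4.49%, and 0 passed with all arrays. For 3 of the 18 every DN-Clim array was below every WT array, beside 6.95%. The list median was -0.86, -0.80 and -0.13 for DN-Clim replicates 1, 2 and 3. These enzymes also process fibrillar collagens, so the list is not specific to collagen IV, and it holds 1 gene of another role, Cert1 (listed as Col4a3bp), a ceramide transfer protein, at -0.06. The prolyl 3-hydroxylase P3h1 and its partner Crtap differed by -1.32 and -0.96, the prolyl 4-hydroxylase subunit P4ha3 by -1.28, and the collagen galactosyltransferases Colgalt1 and Colgalt2 by -0.70 and -0.75. Without DN-Clim replicate 3, 3 of the 18 fell, beside 1.52% of all probe sets. They were Crtap (-1.35, limma adjusted p = 0.0377), P4ha3 (-1.77, adjusted p = 0.0193) and Colgalt2 (-1.11, adjusted p = 0.0426), while P3h1 and Colgalt1 did not pass.

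The mean profile of the 10 genes, relative to WT, was -0.49, -0.95 and -0.13 for DN-Clim replicates 1, 2 and 3 and 0.09, 0.04 and -0.13 on the WT arrays. Of the 10, each of which enters this mean, Lamc1 was closest to it, with a root mean square difference over the 6 arrays of 0.0617, and Lama4 (1.14) and Nid1 (0.511) were the farthest. Among 9396 other genes above the median level, those closest to the mean profile were Rell1 (0.0487), Sh3d21 (0.0541), Upk3bl (0.0544), Clec11a (0.0669), Cacna1g (0.0683) and Gnb4 (0.0697). None is a basement membrane gene of the lists used here, and their differences of -0.56 to -0.49 did not pass (limma adjusted p of 0.819 to 0.877).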

How the data were processed

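Whole-cornea RNA of 3 DN-Clim and 3 WT samples was measured on 1-colour arrays. Per the submitters' processing notes, the deposited intensities (linear scale, 35557 probe sets) come from Affymetrix Expression Console 1.1 with PLIER; how background was corrected and arrays normalized is not given in the sources used here. Precision is limited by the number of arrays. The scale used was log2(intensity + 16). Array medians differed by at most 0.267, below the limit of 0.5 set for centring. The 23410 probe sets paired with at least 1 gene were fitted with limma 3.58.1 in R 4.3.3 (lmFit, eBayes), DN-Clim minus WT, two-sided, with Benjamini-Hochberg adjustment over all of them and a threshold of 0.05. The fit was checked on simulated data. A gene with several probe sets was read from that with the highest mean.

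The 10 genes and all lists were chosen with earlier results of these data known. Named genes were the 10 and, from each related list, the 3 with the smallest unadjusted p. Genes of these lists that passed with all arrays or without DN-Clim replicate 3 were named too. Also named were 2 defining genes of each marker list (the retina pair was not measured by a probe set with 1 symbol) and the 6 genes nearest the mean profile. Emcn and further marker genes (Kdr, Robo4, Esam, Erg, Ptgds, Thy1, Krt5, Krt14, Aldh3a1, Lyz2, Mrc1, C1qa, C1qb, Cd14) were named after their values were seen. In the related lists 1 gene was matched through a newer symbol. Gene positions and promoters are those of RefSeq, GRCm38.p6. Alternatives were other offsets, normalizations, filters and priors, array weights, a replicate block, a lens covariate and leaving out each array.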

Additional observations from a re-analysis of the deposited data

How the results depend on the processing

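The 10 genes gave 177 comparisons with alternatives, of which 158 had the same sign and call, 6 newly passed, 13 turned sign and 0 lost a call. Lama4, Lamc1, Nid1 and Nid2 kept their sign in every alternative run, Lama4 between -2.34 and -1.53 and Nid1 between -1.56 and -0.33. With DN-Clim replicate 3 alone the differences became 0.07 for Col4a1, 0.22 for Col4a2, 0.21 for Col4a5, 0.24 for Col4a6, 0.09 for Lama5 and 0.20 for Lamb1. With the lens covariate they became 0.15 for Col4a2, 0.11 for Col4a5, 0.14 for Col4a6, 0.05 for Lama5 and 0.09 for Lamb1. Leaving out single arrays, Col4a2 ranged from -0.39 to 0.01 and Col4a6 from -0.32 to 0.04, with the positive value without DN-Clim replicate 2 in both. Of 16 related genes, Col4a4 became 0.11 with the lens covariate and 0.21 with DN-Clim replicate 3 alone, and Col4a3 became -0.14 with array weights and ranged from -0.09 to 0.22 when arrays were left out.

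The number of the 10 genes past the limma threshold was 0 in most fits (1 or 2 at an unadjusted p under 0.05), 3 with array weights (Col4a1, Lama4 and Nid1), 1 with the replicate block, and 0 to 2 when single arrays were left out, the 2 without DN-Clim replicate 3. Over all probe sets the count was 3, against 1 with quantile normalization, 0 with all 35557 probe sets (1817 at an unadjusted p under 0.05), 5 with a trended robust prior, 2059 with array weights, 9 with the replicate block, 0 with the lens covariate (3257 at an unadjusted p under 0.05) and 79 with DN-Clim replicate 3 alone. It ranged from 0 to 483 when single arrays were left out, with 483 without DN-Clim replicate 3 and 0 without any of the other 5 (638 to 1240 at an unadjusted p under 0.05). The array weights were 3.06, 0.385 and 0.199 for DN-Clim replicates 1, 2 and 3 and 1.13, 2.89 and 1.31 for WT, estimated gene by gene because the default estimate did not converge, so that the weighted fit rests largely on DN-Clim replicate 1. The cause of these changes was not tested.

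Samples with the same replicate number did not deviate together (correlations of 0.017, -0.206 and -0.436 for numbers 1, 2 and 3). Each deviation was taken from the mean of only 3 arrays, and the arrays differ in lens signal. The check therefore cannot exclude that the numbers pair the samples, and the labels do not say whether they do. With the replicate block, Lama4 was -2.05 (limma adjusted p = 0.0302). The filter that left out probe sets below the median level kept 7 of the 10 genes and gave no value for Lama4, Lama5 and Col4a6. No gene of the 10 had another probe set, so that alternative was not run. The small number of arrays and the spread between DN-Clim arrays limit what could be detected.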
